A study of Arabidopsis thaliana with 12 samples.

Results

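The 7 cell wall remodelling genes described here were measured across 4 groups of Arabidopsis thaliana plants: the expansins EXPA16 (AT3G55500) and EXPB1 (AT2G20750), the expansin-like gene EXLA1 (AT3G45970), the xyloglucan genes XTH16 (AT3G23730) and XTH18 (AT4G30280), the peroxidase gene Prx37 (AT4G08770) and TBL26 (AT4G01080). They were chosen by name, through the probe sets annotated to them, with earlier results of these data known. Each of the 7 genes had 1 probe set, tied to that gene alone, among the 22746 tested probe sets. Rosette leaf RNA of 12 plants was measured, 1 array for each. These were AB plants, a Columbia line with the Mycobacterium gastri MB19 transgenes rmpA (hexulose phosphate synthase) and rmpB (phosphohexuloisomerase) expressed in chloroplasts. The enzymes let the line assimilate formaldehyde. Every group shares both transgenes, and Columbia plants lacking them were not analysed here.

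The groups held 3 plants each. Outside plants stayed out of the exposure chamber, at under 0.08 ppm formaldehyde. Air plants spent 150 min in the ventilated 10 L chamber at under 0.04 ppm. Low plants were in the chamber at 1 to 2 ppm, and high plants at 14 to 16 ppm, for the same time. All were 7 weeks old and had been kept in constant light at 24 °C for 72 h. The plants of a chamber condition were exposed together, so chamber run and condition cannot be told apart, and p-values cover only the spread between plants.

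The primary cell wall is a network of cellulose microfibrils tied by xyloglucan and other hemicelluloses and set in pectin. Expansins loosen this network without cutting it, and XTH enzymes cut and rejoin xyloglucan chains. Class III peroxidases can stiffen walls by cross-linking phenolic groups, and TBL proteins add acetyl groups to wall polysaccharides.

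Values are log2 intensities, where a difference of 1 is a 2-fold change, and a level cannot be compared between genes. The lowest value in the table was 2.11, and a fold against a group whose mean lay within 1 of it is given as a lower bound. Array medians ran from 5.68 to 5.82. Air plant 1 stood apart from air plants 2 and 3. Across probe sets (no independent replicates) its correlation was 0.9858 with air plant 2 and 0.9824 with air plant 3. It was 0.9953, 0.9915 and 0.9903 with low plants 1, 2 and 3, and 0.9882, 0.9866 and 0.9859 with outside plants 1, 2 and 3. Within the other groups the correlations ran from 0.9916 to 0.9967. Leaf photosynthesis markers (5 of 7 listed had a probe set) summed to 72.16 to 72.38 in outside, 71.41 to 72.09 in air, 71.73 to 72.08 in low and 69.25 to 70.44 in high plants. PRK averaged 12.79 in high and 13.75 in air plants, and SBPASE 12.54 and 13.46. The other markers of this sum differed less: RCA averaged 14.81 and 14.95, LHCB4.1 14.71 and 14.72, and LHCB4.2 14.88 and 14.93. The sums for guard cell markers (2 of 4) were 14.99 to 16.02 in outside, 14.68 to 16.64 in air, 16.49 to 17.40 in low and 13.78 to 14.43 in high plants. These guard cell sums join markers whose means differed in opposite directions in air against outside: FMA averaged 5.02 in air and 6.25 in outside plants, and AT1G22690 averaged 10.57 in air and 9.11 in outside plants. In high plants FMA averaged 4.18 and AT1G22690 10.00, again in opposite directions from outside plants. The root marker PYK10 (1 of 3) lay at 2.11 on every array but that of air plant 3, at 6.17. The phloem, xylem, epidermis and inflorescence lists had 0 markers with a probe set that the annotation ties to that gene alone. The 3' minus 5' signal of GAPDH, a sign of RNA quality, was 0.232 ± 0.049 (SD, n = 3) in high plants and 0.029 ± 0.103 in air plants, and that of ubiquitin was -0.482 ± 0.035 in high plants and -0.367 ± 0.064 in air plants. The actin signal was 0.655 ± 0.144 in air and 0.886 ± 0.060 in outside plants, and 0.887 ± 0.148 in high plants. The part of these markers and signals in the results below was not tested.

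**Figure D1:**
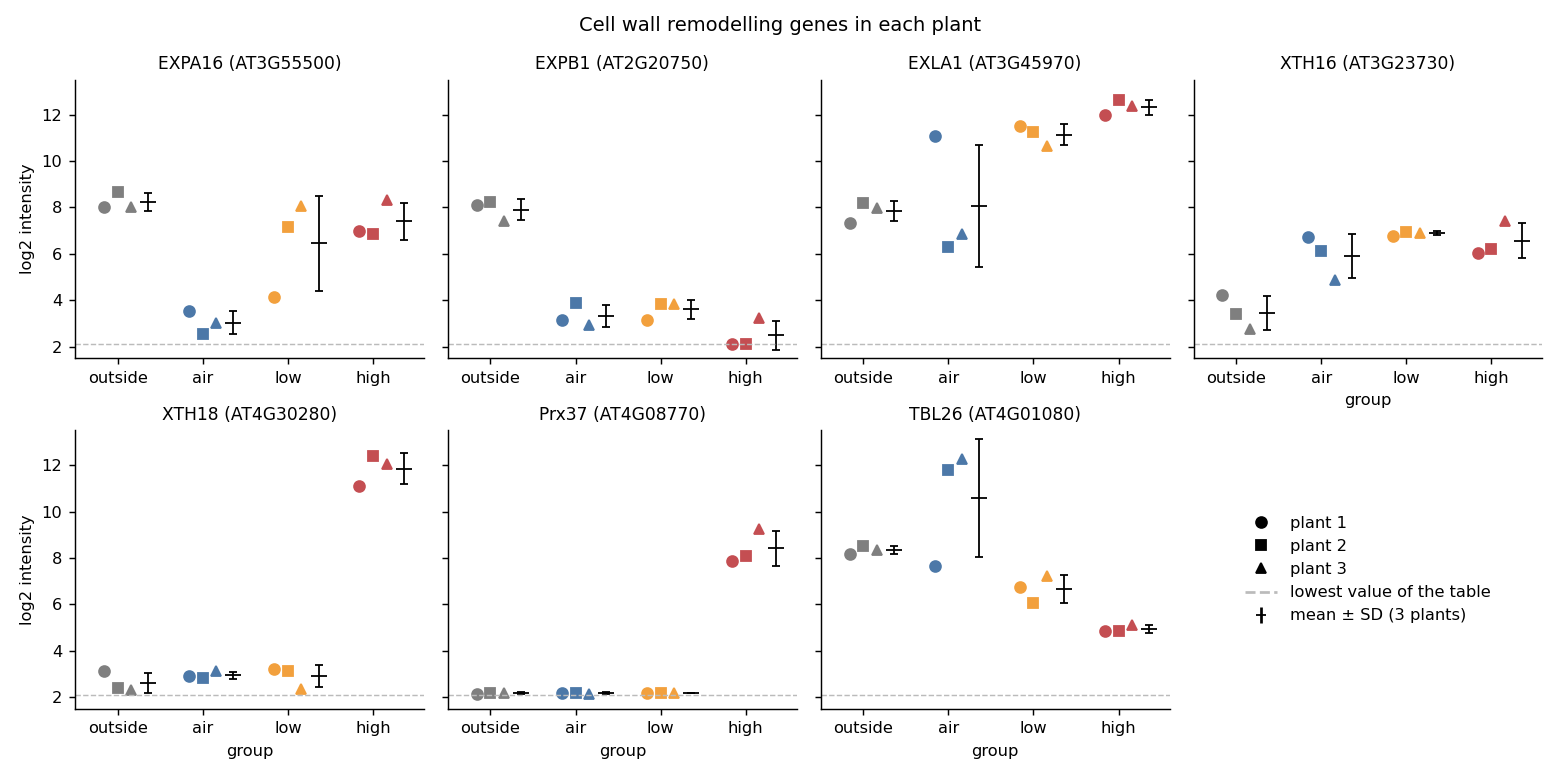
Log2 intensity (vertical axis) of the 7 genes in each of the 12 plants, by group, with the mean and SD of the 3 plants beside the points and a dashed line at the lowest value of the table, 2.11. XTH18 and Prx37 are near the line in outside, air and low plants and far above it in the high plants, EXPB1 is high in outside plants, and air plant 1 (circle) parts from air plants 2 and 3 for EXLA1 and TBL26.

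The expansins EXPA16 and EXPB1 were lower in chamber air than outside. In high against air EXPA16 was called higher and EXPB1 was not called, and the difference between the genes was not tested. EXPA16, an alpha-expansin of the class that loosens walls at acid pH, read 8.01, 8.68 and 8.00 in outside plants, 3.52, 2.52 and 3.02 in air plants, 4.15, 7.16 and 8.04 in low plants and 7.00, 6.87 and 8.32 in high plants. Its air plants lay below every other plant, and its high plants overlapped the outside plants. Low plant 1 stood close to the air plants and far below low plants 2 and 3.

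EXPA16 averaged 3.02 ± 0.50 (SD, n = 3) in air plants and 8.23 ± 0.39 in outside plants, a log2 change of -5.21 ± 0.89 (SE; limma adjusted p = 0.0144). It was at least 37.0-fold lower, the fall of rank 5 among all probe sets. The call was lost without air plant 2 (-4.96, adjusted p = 0.0533) and with air plant 1 as the sole air plant (-4.71, adjusted p = 0.174). In bulk leaf RNA, fewer cells of a type and less RNA per cell cannot be told apart.

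In high plants EXPA16 averaged 7.40 ± 0.80 (SD, n = 3), at least 20.8-fold above the air plants (log2 change 4.38 ± 0.89 SE; limma adjusted p = 0.00427). With air plant 1 as the sole air plant it was 3.88 and did not pass (limma adjusted p = 0.0983). Its low plants averaged 6.45 ± 2.04 (SD, n = 3), and the change against air, 3.43 ± 0.89 (SE), did not pass (limma adjusted p = 0.0994). Without low plant 1 that change was 4.58 and passed (limma adjusted p = 0.00943). High against low (0.95, limma adjusted p = 0.528) and high against outside (-0.83, limma adjusted p = 0.588) did not pass. From the highest mean down, the order was outside, high, low and air, and no neighbours in it differed beyond the test's threshold.

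EXPB1, a beta-expansin, read 8.08, 8.22 and 7.39 in outside plants, 3.16, 3.87 and 2.93 in air plants, 3.14, 3.85 and 3.85 in low plants and 2.11, 2.11 and 3.23 in high plants. All 9 chamber plants lay below all 3 outside plants. High plants 1 and 2 were at the lowest value of the table. EXPB1 was 24.0-fold lower in air than in outside plants (log2 change -4.58 ± 0.40 SE; limma adjusted p = 0.00117), with means of 3.32 ± 0.49 and 7.90 ± 0.44 (SD, n = 3). It was 19.5-fold lower in low plants (-4.29; limma adjusted p = 0.000672) and at least 42.8-fold lower in high plants (-5.42; limma adjusted p = 8.68e-06) than in outside plants. These 3 falls ranked 9, 5 and 14 in their comparisons, which share the outside plants.

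Among the chamber groups EXPB1 had a log2 change of -0.84 ± 0.40 (SE) in high against air (limma adjusted p = 0.15), 0.30 ± 0.40 in low against air (limma adjusted p = 0.887) and -1.13 ± 0.40 in high against low (limma adjusted p = 0.0559). The value of high against air was -1.21 and passed without high plant 3 (limma adjusted p = 0.0357). The value of high against low passed under 6 of 20 alternative settings, among them quantile normalization (-1.19, limma adjusted p = 0.0353). The order of its means was outside, low, air and high, with a called difference only between the first and the second.

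EXLA1 belongs to the expansin-like A group, whose members resemble expansins in sequence and have no established wall-loosening activity. It read 7.33, 8.20 and 7.98 in outside plants, 11.07, 6.27 and 6.84 in air plants, 11.49, 11.26 and 10.63 in low plants and 11.98, 12.61 and 12.35 in high plants. The high plants lay above all others, and the low plants above all outside plants. Air plant 1 was within the range of the low plants, and air plants 2 and 3 were below every outside plant.

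EXLA1 averaged 12.31 ± 0.31 (SD, n = 3) in high plants, 22.2-fold above the outside plants at 7.84 ± 0.45 (log2 change 4.47 ± 1.06 SE; limma adjusted p = 0.00855). Against the air plants, at 8.06 ± 2.62 (SD, n = 3), it was 19.1-fold higher (4.25 ± 1.06 SE; limma adjusted p = 0.0121). That size depends on the air plant used: it was 5.76 without air plant 1 (limma adjusted p = 1.2e-05) and 1.24, not past the threshold, with air plant 1 as the sole air plant (limma adjusted p = 0.0957). With the 6 high and air arrays alone it did not pass either (limma adjusted p = 0.0889).

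The low plants averaged 11.13 ± 0.45 (SD, n = 3) for EXLA1, with a log2 change of 3.07 ± 1.06 (SE) against air (limma adjusted p = 0.174) and 3.29 ± 1.06 against outside (limma adjusted p = 0.104). Neither passed, although the change against outside did after a filter on dim probe sets (limma adjusted p = 0.0352) and with the 6 arrays alone (limma adjusted p = 0.0124). Without air plant 1 both passed, at 4.57 (limma adjusted p = 0.000371) and 3.29 (limma adjusted p = 0.00102); the second value is the same since air plants enter it only through the estimate of the spread. High against low was 1.18 (limma adjusted p = 0.496), and it passed without air plant 1 (limma adjusted p = 0.0203) and with the 6 arrays alone (limma adjusted p = 0.0346). Air against outside was 0.22 (limma adjusted p = 1.0), or -1.29 without air plant 1 (limma adjusted p = 0.0647) and 3.23 with air plant 1 alone (limma adjusted p = 0.0165). From the highest mean down, EXLA1 ran high, low, air and outside, with no called difference between neighbours.

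The XTH genes differed in their pattern over the groups. XTH16 was higher in the chamber groups than outside, and XTH18 was higher in the high group. XTH16 read 4.23, 3.39 and 2.74 in outside plants, 6.71, 6.13 and 4.88 in air plants, 6.78, 6.94 and 6.91 in low plants and 6.05, 6.21 and 7.43 in high plants. All 9 chamber plants lay above the outside plants, and the high plants overlapped both the air and the low plants.

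XTH16 averaged 6.88 ± 0.09 (SD, n = 3) in low plants and 3.45 ± 0.74 in outside plants, 10.7-fold higher (log2 change 3.42 ± 0.56 SE; limma adjusted p = 0.00849). It was 8.61-fold higher in high plants, at 6.56 ± 0.75 (SD, n = 3), than in outside plants (3.11 ± 0.56 SE; limma adjusted p = 0.00185). In air plants it averaged 5.90 ± 0.94 (SD, n = 3), 5.47-fold above the outside plants (2.45 ± 0.56 SE; limma adjusted p = 0.0396). The call in air plants was lost in 9 of 12 fits that left out an array, those without outside plants 2 and 3, air plants 1 and 2, each low plant and high plants 1 and 2, with adjusted p up to 0.121 by limma without air plant 2. It was also lost with the replicate number as a block (limma adjusted p = 0.0804), with the 6 arrays alone (0.185) and with air plant 1 as the sole air plant (0.0646). Among the chamber groups the changes were 0.65 in high against air (limma adjusted p = 0.466), 0.97 in low against air (limma adjusted p = 0.436) and -0.32 in high against low (limma adjusted p = 0.866). Its means ran low, high, air and outside, with the last step the only called one.

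XTH18 had the largest change of the 7 genes. It read 3.11, 2.38 and 2.31 in outside plants, 2.90, 2.81 and 3.11 in air plants, 3.23, 3.11 and 2.36 in low plants and 11.10, 12.38 and 12.06 in high plants. Outside, air and low plants overlapped near the lowest value of the table, and the high plants stood far above them, with high plant 1 the lowest.

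XTH18 averaged 11.85 ± 0.66 (SD, n = 3) in high plants and 2.94 ± 0.16 in air plants, a rise of at least 481-fold (log2 change 8.91 ± 0.37 SE; limma adjusted p = 4.46e-07) that ranked 15 among all probe sets. Against low plants, at 2.90 ± 0.47 (SD, n = 3), it was at least 494-fold higher (8.95; limma adjusted p = 4.85e-07; rank 11), and against outside plants at least 608-fold (9.25; limma adjusted p = 2.96e-07; rank 16). Low against air was -0.04 ± 0.37 (SE; limma adjusted p = 1.0), a comparison of values near the lowest one, where a small change could be missed. Over all alternatives run, the high against air change stayed between 8.64 and 9.28, with limma adjusted p up to 0.000405.

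Prx37 encodes a class III peroxidase, an enzyme class secreted to the wall. It read 2.13, 2.20 and 2.20 in outside plants, 2.20, 2.20 and 2.13 in air plants, 2.20 in each low plant and 7.89, 8.09 and 9.26 in high plants. Like XTH18 it was at the bottom of the scale in the 9 plants outside the high group. It was at least 75.5-fold higher in high than in air plants (log2 change 6.24 ± 0.29 SE; limma adjusted p = 8.45e-07; rank 76), with means of 8.41 ± 0.74 and 2.18 ± 0.04 (SD, n = 3). It was at least 74.4-fold higher in high than in low plants (6.22; limma adjusted p = 9.4e-07), and at least 75.5-fold higher than in outside plants (6.24; limma adjusted p = 6.17e-07). The low against air difference was 0.02 (limma adjusted p = 1.0), with both groups within 0.5 of the lowest value, so no fold is given.

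TBL26, known as a mannan O-acetyltransferase, fell at the high concentration. It read 8.18, 8.53 and 8.35 in outside plants, 7.67, 11.81 and 12.28 in air plants, 6.77, 6.05 and 7.23 in low plants and 4.85, 4.84 and 5.12 in high plants. The high plants lay below all others and the low plants below all outside and air plants. Air plant 1 was below the outside plants, and air plants 2 and 3 were above them by more than 3 log2 units.

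TBL26 averaged 4.94 ± 0.16 (SD, n = 3) in high plants and 10.59 ± 2.54 in air plants, 50.3-fold lower (log2 change -5.65 ± 1.02 SE; limma adjusted p = 0.00219), the fall of rank 5. Without air plant 1 the change was -7.11, and with air plant 1 alone -2.73; it passed in both fits (limma adjusted p = 2.52e-06 and 0.00333). Against outside plants, at 8.35 ± 0.17 (SD, n = 3), it was 10.7-fold lower (-3.42; limma adjusted p = 0.0264). That call was lost in 6 of 12 fits, those without any outside or any high plant (limma adjusted p up to 0.0713), where 1 of the groups compared held 2 plants.

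In low plants TBL26 averaged 6.68 ± 0.60 (SD, n = 3), and the change against air was -3.91 ± 1.02 (SE; limma adjusted p = 0.101). It was -5.37 without air plant 1 (limma adjusted p = 0.000104) and -0.99 with air plant 1 alone (limma adjusted p = 0.729). High against low (-1.75; limma adjusted p = 0.262), low against outside (-1.67; limma adjusted p = 0.449) and air against outside (2.24; limma adjusted p = 0.272) did not pass. Of these, high against low also passed with the 6 arrays alone (limma adjusted p = 0.0166). All 3 passed without air plant 1, at limma adjusted p of 0.00183, 0.0104 and 0.000911. Its means ran air, outside, low and high, with no called difference between neighbours.

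**Figure D2:**
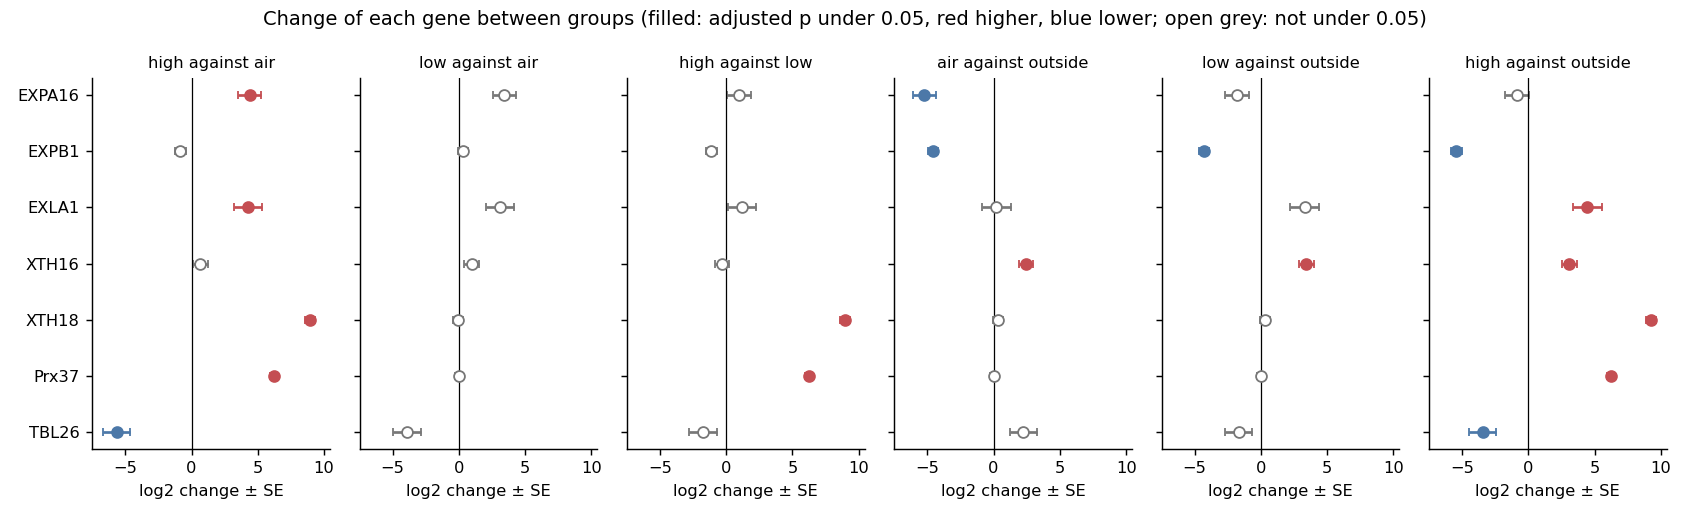
Log2 change with its SE (horizontal axis) of each of the 7 genes in 6 comparisons, from the fit to all 12 arrays. Filled points passed an adjusted p of 0.05, with red for higher and blue for lower; 5 points are filled in high against air and 0 in low against air.

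In high against air, 5 of 7 genes were called, with 34.6% of all probe sets called. EXPA16, EXLA1, XTH18 and Prx37 were higher (14.7% of all probe sets were) and TBL26 was lower (19.9%). The median log2 change of the 7 genes was 4.25, the value of EXLA1, and that of all probe sets was 0.00. EXLA1 was at 1.24 when air plant 1 stood as the sole air plant. The genes were chosen with earlier results of these data known, so this median does not describe wall genes at large. With air plant 1 as the sole air plant, 3 genes were called, XTH18, Prx37 and TBL26, along with 5374 of the 22746 probe sets (7867 with all arrays).

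In low against air, limma called 0 of 7, with 1.24% of all probe sets called (0.756% higher and 0.488% lower). The unadjusted limma p was 0.00408 for EXPA16, 0.018 for EXLA1 and 0.00423 for TBL26, and 0.115 or more for the others. How many of all probe sets reached such values was not counted. The median of the 7 was 0.30. Centring each array on its median changed the split of all calls in this comparison, with 488 higher and 190 lower, against 172 higher and 111 lower as deposited. Under it EXPA16 (3.50; limma adjusted p = 0.0419) and TBL26 (-3.84; limma adjusted p = 0.0492) passed, as they did after a filter on dim probe sets (limma adjusted p = 0.0294 for each).

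In high against low, 2 of 7 were called, XTH18 and Prx37, both higher, with 33.8% of all probe sets called (15.5% higher and 18.3% lower). The median of the 7 was 0.95. In air against outside, 3 of 7 were called, with 5.6% of all probe sets called: EXPA16 and EXPB1 were lower (2.5% of all probe sets were) and XTH16 was higher (3.1%). After median centring of the arrays, all calls split into 732 higher and 804 lower, against 705 higher and 569 lower as deposited, and the same 3 genes were called in the same directions. In low against outside, 2 of 7 were called, XTH16 higher and EXPB1 lower, with 7.8% of all probe sets called (4.03% higher and 3.77% lower). In high against outside, 6 of 7 were called, with 37.5% of all probe sets called: EXLA1, XTH16, XTH18 and Prx37 were higher (16.4%), EXPB1 and TBL26 were lower (21.1%), and EXPA16 was not called. Comparisons that share a group are not independent of each other.

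Other genes of the same families, and of further wall families, were called in both directions. The annotation names no gene for 8730 of the 22746 probe sets, so lists by name can miss genes on the array. Annotation names gave 55 further genes with 56 probe sets. Of these, 23 probe sets lay within 0.5 of the lowest value on all 12 arrays, 8 of them among 16 expansins and 4 among 8 XTH genes. In high against air 13 of the 56 were called, 7 higher and 6 lower, with 34.6% of all probe sets called. In low against air limma called 0 (1.24% of all). In high against low 13 were called (33.8% of all), in air against outside 4 (5.6%), in low against outside 7 (7.8%) and in high against outside 19 (37.5%). The median log2 change was 0.00 in each of these comparisons, as it was over all probe sets.

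Of the 16 other expansins, 1 was higher and 2 were lower in high than in air plants (14.7% and 19.9% of all probe sets were). EXLA2, of the same expansin-like group as EXLA1, averaged 5.84 ± 0.87 (SD, n = 3) in high plants and 3.21 ± 0.53 in air plants (log2 change 2.63; limma adjusted p = 0.000943). EXPA8 averaged 7.91 ± 0.97 in high plants and 10.68 ± 1.03 in air plants (-2.77; limma adjusted p = 0.00406), and EXPB3 4.34 ± 0.56 and 6.16 ± 1.09 (-1.82; limma adjusted p = 0.0259). In air against outside plants EXPA15 was the single other expansin called (-1.29, limma adjusted p = 0.011). It was lower, as were 2.5% of all probe sets. In low against outside plants 3 were lower, EXPA15 (-1.25), EXPA4 (-1.19) and EXPB3 (-2.39), and 0 were higher. Over all probe sets 3.77% were lower and 4.03% higher. In high against outside plants 4 were lower, among them EXPA8 (-4.58), EXPB3 (-3.84) and EXPA15 (-1.38). The 1 higher was EXLA2 (2.08, limma adjusted p = 0.0032). Over all probe sets 21.1% were lower and 16.4% higher in high against outside.

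Of the 8 other XTH genes, XTH19 rose (2.50; limma adjusted p = 0.0253) and XTH32 fell (-1.42; limma adjusted p = 0.0209) in high against air. Of 5 other class III peroxidases, AtPRX71 (AT5G64120) rose, to 11.05 ± 0.36 (SD, n = 3) in high plants against 7.19 ± 0.96 in air plants (3.86; limma adjusted p = 0.000161). It was also higher in high than in low plants (3.05; limma adjusted p = 0.000686). No other peroxidase on the list was called in any of the 6 comparisons. The list holds only genes with a peroxidase name in the annotation and can miss others. AT4G08780, next to Prx37, has no such name there and is given below among the adjacent genes.

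Of 22 other TBL genes with 23 probe sets, 6 probe sets were called in high against air, 4 higher and 2 lower. Over all probe sets 14.7% were higher and 19.9% lower. TBL25, which like TBL26 is known as a mannan O-acetyltransferase, averaged 7.72 ± 0.17 (SD, n = 3) in high plants and 10.30 ± 0.34 in air plants (-2.58; limma adjusted p = 1.07e-05). Its air plants read 10.69, 10.11 and 10.09, close to each other where those of TBL26 were spread. TBL23, known for the same activity, was not called (-0.51; limma adjusted p = 0.0624). TBL37 (1.41, limma adjusted p = 0.0165) and TBL32 (0.98, limma adjusted p = 0.00867) were higher. Whether the probe set of TBL32 also binds RNA of other genes was not tested. In air against outside the 3 called TBL probe sets were higher, as were 3.1% of all probe sets. They were those of TBL38 (1.74, limma adjusted p = 0.0143) and both of TBL40 (1.12 and 1.22, limma adjusted p = 0.00639 and 0.0104). Of 3 pectin methylesterases PME61 fell in high against air (-2.36; limma adjusted p = 0.00631), and the laccase LAC16 lay at the bottom of the scale. The lists for cellulose synthases, callose synthases and fasciclin-like arabinogalactan proteins had 0 genes with a probe set that the annotation ties to that gene alone. Whether unnamed probe sets hold such genes is not known.

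**Figure D3:**
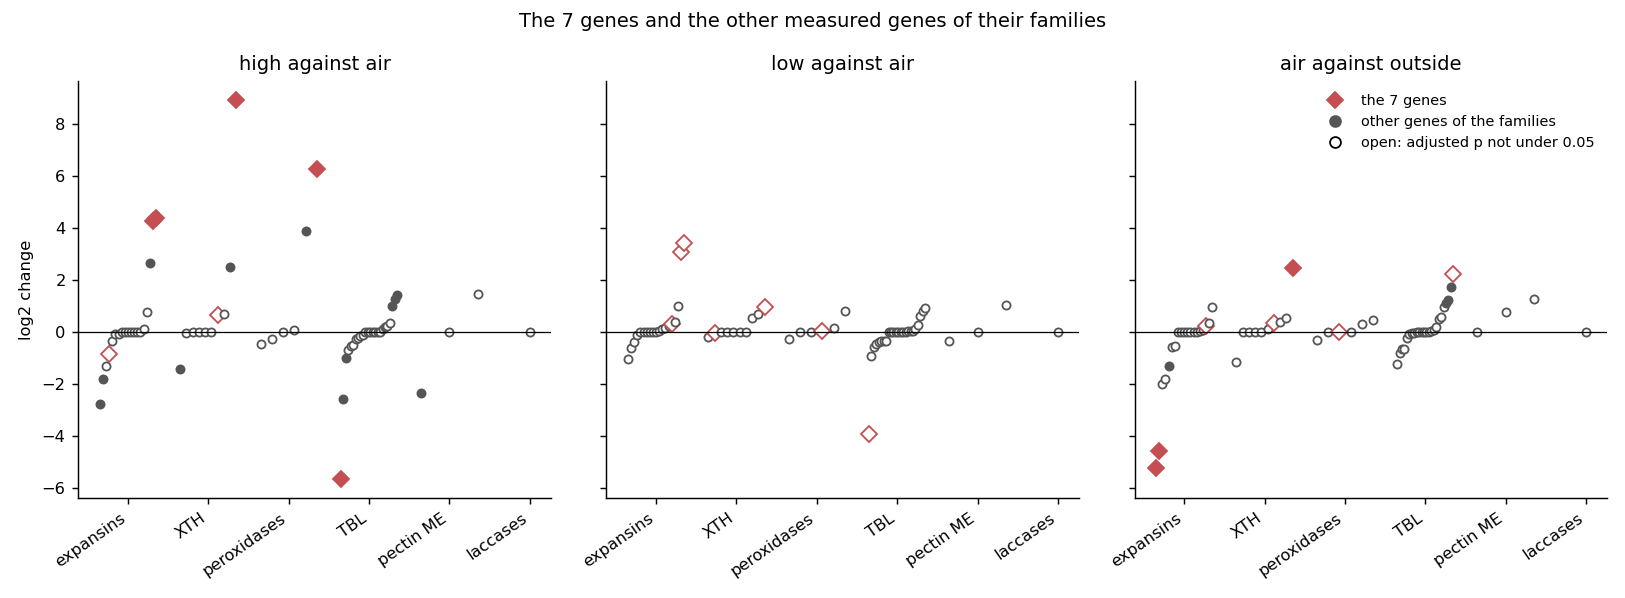
Log2 change (vertical axis) of the 7 genes (red diamonds) and of the other measured genes of the wall lists (grey circles) in 3 comparisons; filled symbols passed an adjusted p of 0.05. In high against air XTH18 and Prx37 lie above and TBL26 below the other genes of their families, and many of the other genes sit at 0.

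By the order of genes in the reference table, 10 measured genes lie directly next to 1 of the 7, at least 1 for each. In high against air 3 of these 10 were called, with 34.6% of all probe sets called. All 3 were higher (14.7% of all probe sets were): XTH19, AT4G08780 and AT2G20760. XTH19, next to XTH18, read 2.14, 3.16 and 2.30 in outside plants, 2.35, 2.42 and 3.12 in air plants, 2.42 in each low plant and 3.13, 6.14 and 6.11 in high plants. High plant 1 lay between outside plants 1 and 2, so these groups overlapped, and it was the lowest high plant for XTH18 too. XTH19 was called higher in high plants against air (2.50), low (2.71) and outside plants (2.60). AT4G08780, next to Prx37, read 4.16, 4.52 and 6.55 in high plants and 2.11 in each of the other 9 plants, at least 7.82-fold higher in high than in air plants (2.97 ± 0.50 SE; limma adjusted p = 0.00155). For both Prx37 and AT4G08780 high plant 3 was the highest. AT4G08760, on the other side of Prx37, lay at 2.11 on all 12 arrays, and AT4G08790, next but 1, fell in high against air (-1.20; limma adjusted p = 2.33e-05). How far the probes of these adjacent genes also bind the other gene's RNA was not tested. EXLA3, next to EXLA1, lay between 2.15 and 2.75 on all 12 arrays and was not called in any comparison. AT2G20760, next to EXPB1, rose in high against air (0.89; limma adjusted p = 0.000124) and was not called in air against outside (-0.26; limma adjusted p = 0.177).

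**Figure D4:**
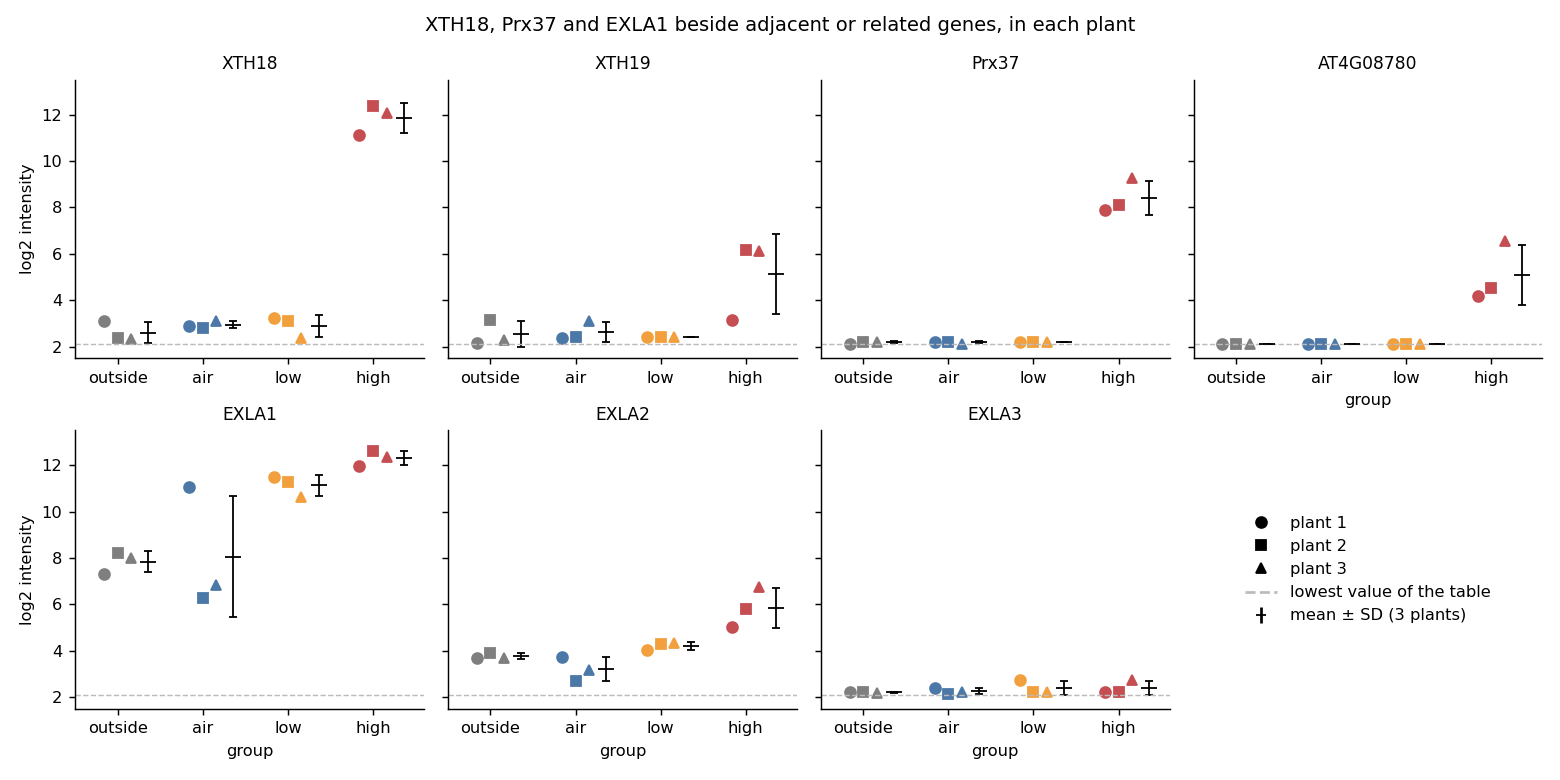
Log2 intensity (vertical axis) by group in each of the 12 plants for XTH18 and its neighbour XTH19, Prx37 and its neighbour AT4G08780, and EXLA1 with EXLA2 and its neighbour EXLA3; black bars give the mean and SD of 3 plants and the dashed line the lowest value. XTH18, Prx37 and AT4G08780 stand above their other plants in all 3 high plants and XTH19 in high plants 2 and 3, and EXLA3 stays near the line.

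The profiles of the 7 genes over the 12 arrays were compared by the root mean square difference, in log2 units, after each was centred on its own mean. The most alike pair was XTH18 and Prx37, at 1.29, followed by EXLA1 and XTH16 at 1.66. About its own mean XTH16 had a root mean square of 1.46, so a flat profile would lie closer to it than EXLA1 did. Those of XTH18 and Prx37 about their own means were 3.93 and 2.72. The least alike was XTH18 and TBL26, at 5.76. EXPA16 and EXPB1, which both fell in air against outside, were 2.22 apart, since EXPA16 was back near its outside level in high plants and EXPB1 was not.

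By the same measure, the nearest of 13512 other single-gene probe sets to XTH18 were Hop3 (0.51), a co-chaperone, and AT1G71000 (0.52). Hop3 read 10.35, 10.66 and 11.45 in high plants. Nearest to Prx37 were AT1G72660 (0.29) and AT2G41380 (0.32). Nearest to EXLA1 were AT4G15700 (0.57) and AT1G02660 (0.66). AT4G15700 also parted the air plants, at 8.06, 3.67 and 3.70, with air plant 1 like the low plants at 7.98 to 8.25.

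TBL26 was most like AT2G25625 (0.86) and the sucrose transporter SWEET13 (0.87), both with air plants 2 and 3 above the rest. XTH16 was most like the cytochrome P450 gene CYP71B22 (0.61) and AT2G31730 (0.76). EXPB1 was most like AT1G60590 (0.71) and AT1G27120 (0.93), and AT1G60590 read 6.61, 6.92 and 5.80 in outside plants and 2.40 to 4.40 in all others. EXPA16 had the least close matches, AT3G62820 (1.07) and AT1G11850 (1.13).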

How the data were processed

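The authors deposited 1 table of log2 intensities for 12 arrays, made with GCRMA per the submitters' processing notes. GCRMA corrects background from probe sequence, scales the arrays to a common distribution and summarises probes to a probe set, so low signals collect at a shared lowest value and their changes are poorly resolved. No version or setting of it is given in the sources used here. Of 22810 probe sets, 64 array controls were left out, which leaves 22746, and no filter was set on these. Probe sets were named by the supplied annotation (13513 with 1 gene, 503 with several, 8730 with none) and by a gene table of assembly TAIR10.1, used for names and neighbours only.

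A linear model was fitted to all 12 arrays (8 residual degrees of freedom) with limma 3.58.1 under R 4.3.3, and variances were moderated towards a trend on mean intensity. Tests were two-sided, Benjamini-Hochberg adjusted over the 22746, and called at an adjusted p under 0.05. This code was first tested on simulated data. Python 3.11.15, pandas 2.3.3 and matplotlib 3.10.9 made tables and plots. Depth has no meaning for arrays, and 3 plants a group limit the precision.

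The genes and lists were chosen with earlier results of these data known. Genes outside the 7 were named where they had the smallest adjusted p among called list genes (up to 3 per list and comparison), or were among the 2 nearest in profile. Outside this rule, TBL23 was named for the activity it shares with TBL26, and LAC16 as the single laccase measured. The limit of 1 for lower bounds and the adjacent genes were chosen after their values were seen. Alternatives were other scalings, a filter on dim probe sets, variance models, the 6 arrays compared, a stricter threshold, a replicate block and each array left out. Air plant 1 as the sole air plant was added after seeing the data, and its lone value was assumed to vary like the other groups.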

Additional observations from a re-analysis of the deposited data

How the results depend on the processing

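Of 861 values for single genes under the alternatives run, 797 kept their direction and side of the threshold, 27 lost a call, 24 gained one and 13 changed sign. XTH18 and Prx37 in each comparison with the high plants, and EXPB1 in each comparison with outside plants, kept their calls throughout. So did TBL26 in high against air, EXLA1 in high against outside, and XTH16 in low against outside and in high against outside. The replicate number as a block left 5 called genes in high against air, 0 in low against air, 2 in high against low, 2 in air against outside, 2 in low against outside and 6 in high against outside, with 7530, 81, 7276, 845, 1396 and 8150 of the 22746 probe sets called; XTH16 in air against outside was the call lost. Same-numbered plants did not pair: deviations from group means correlated over 0.1 in 5 of 18 pairs (-0.273 to 0.231), and 0 of 12 arrays correlated best with their own number.

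Called genes in high against air numbered 3 with air plant 1 alone (5374 of all probe sets). In low against air they numbered 2 with each array centred (678 of all) and 2 with the filter (1119 of 14840 tested). They were 4 in high against low with the 6 arrays alone (7282 of all) and 1 in air against outside at an adjusted p under 0.01 (282 of all). With each array left out in turn the counts ran from 0 to 2 in low against air, 2 to 4 in high against low, 1 to 3 in air against outside and 2 to 4 in low against outside. Without air plant 1 they were 2, 4, 3 and 4 in this order (2250, 7882, 2137 and 2273 of all), and without air plant 2 the count was 1 in air against outside (603 of all). Sign changes were in values that had not passed: XTH16 in high against air (-0.15 with air plant 1 alone), TBL26 in air against outside (-0.68 with it), XTH18 in low against air (0.03 with arrays centred, 0.00 with air plant 1 alone) and Prx37 in air against outside (-0.02 with arrays centred). With an array left out, XTH18 ran from -0.20 to 0.23 in low against air, EXPA16 from -0.20 to 1.74 in high against low, and EXLA1 from -1.29 to 1.11 and Prx37 from -0.02 to 0.02 in air against outside. The cause was not tested.

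At an adjusted p under 0.05, calls over all probe sets ran from 7 (the 6 arrays alone) to 2250 (without air plant 1) in low against air, with 283 as reported, from 58 (the 6 arrays alone) to 2137 (without air plant 1) in air against outside, with 1274 as reported, and from 820 (without low plant 3) to 2531 (the filter) in low against outside, with 1775 as reported. Signal near the lowest value limits what can be seen for XTH18, Prx37, EXPB1 and EXPA16 in groups that lie there.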
